A study of Caenorhabditis elegans with 6 samples.

Results

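The genes described here are 9 genes of the mitochondrial unfolded protein response (UPRmt) of the nematode Caenorhabditis elegans, out of 20894 rows of the deposited expression table. They are the chaperone genes hsp-6, hsp-60 and dnj-10, the protease genes clpp-1 and lonp-1, and the regulators ubl-5, dve-1, atfs-1 and haf-1. They were found by symbol, through the RefSeq locus tag of each row, and not by their values. RNA was sequenced from whole animals labelled as adults, grown on Escherichia coli OP50, the usual laboratory food of the worm. There were 3 libraries of N2, the wild-type strain, and 3 of the mutant bcf-1(ylf1), and each replicate was raised, harvested and handled separately, per the series design text. BCF-1 is, by the series title, an intestinal protein that carries N-linked sugars and binds bacteria, and what the ylf1 allele alters in the gene is not given in the labels.

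The UPRmt is a transcriptional response to trouble in the mitochondrial matrix, such as misfolded proteins or slowed protein import. When import is slowed, the transcription factor ATFS-1 is no longer taken into mitochondria and destroyed there, and it enters the nucleus, where it raises the transcription of matrix chaperones and proteases. In the worm, reporters of hsp-6 and hsp-60 in the intestine are the usual readouts of this response, and several bacteria and bacterial products are known to switch them on.

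Values were taken to be FPKM (fragment counts divided by transcript length and by the total of the library), so that levels can be set side by side between genes. Tests ran on log2(FPKM + 1) with limma over the 13576 genes that reached 1 FPKM in 3 or more libraries, two-sided, with Benjamini-Hochberg adjustment over all of them and a threshold of 0.05. All 9 genes passed this filter, each with 1 FPKM or more in all 6 libraries. The sequencing depth behind the values is unknown. Of all tested genes, 49.6% passed the threshold, which divides into 34.6% higher and 15% lower in bcf-1(ylf1). Across all tested genes the log2 change, mutant minus N2, had a median of 0.24, and changes relative to that level are given where they matter.

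bcf-1, the mutated gene, was lower in all mutant libraries than in all N2 libraries. It was at 374, 412 and 499 FPKM in N2 and at 63.7, 72.1 and 60.01 FPKM in the mutant. The 10 markers of the adult stage, vitellogenins and adult collagens, all fell in the mutant, and their summed level went from between 3620 and 6295 FPKM in N2 to between 27.96 and 70.3 FPKM in the mutant, so that the defining transcripts of the labelled adult stage were low there. vit-2, a yolk protein gene, was at 688 to 1132 FPKM in N2 and at 3.84 to 14.1 FPKM in the mutant. Summed markers of the germline were 441 to 783 FPKM in N2 and 787 to 846 FPKM in the mutant (4 of 10 higher, 0 lower), and those of oocytes and eggshell 473 to 1239 and 445 to 508 FPKM (3 of 10 lower). Summed sperm markers were 230.4 to 356 and 271 to 430.3 FPKM (5 of 8 higher), pharynx markers 54.7 to 66.5 and 255 to 282 FPKM (6 of 7 higher), and hypodermis markers 272 to 417 and 1112 to 1250.0 FPKM (7 of 7 higher). Summed intestine markers were 6231 to 8354 and 8147 to 10066 FPKM (1 of 9 higher, 5 lower), body wall muscle markers 2776 to 3380 and 3631 to 3980 FPKM (4 of 7 higher), and neuron markers 236 to 253 and 286 to 333 FPKM (2 of 7 higher). No marker was at 0 in any library. In whole animals, a change in the number of cells of a type and a change in RNA per cell cannot be told apart, and the part of these shifts in the values below was not tested.

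Few of the 9 genes passed the threshold in a comparison in which 49.6% of all genes did. A missing call does not show an unchanged level, and the changes depend on the scaling. By limma, 1 of 9 passed the threshold, hsp-60, which was lower in the mutant, and 0 were higher. At an unadjusted p under 0.05 there were 1 lower, hsp-60, and 1 higher, atfs-1, against 56.5% of tested genes in either direction. Changes ran from -0.34 to 0.31 on the log2(FPKM + 1) scale, with a median of 0.025, or -0.21 relative to all tested genes. No gene of the 9 changed 2-fold, against 18.1% of tested genes that passed the threshold with at least a 2-fold change. The 95% interval of the change lay within 1 log2 unit of 0 for 9 of 9 genes, against 61.2% of tested genes, and within 0.5 for 4 of 9, namely hsp-6, dnj-10, lonp-1 and dve-1, against 17.3%. The values of the genotypes did not overlap for 3 of 9, hsp-60, atfs-1 and haf-1, against 58.4% of tested genes.

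**Figure D1:**
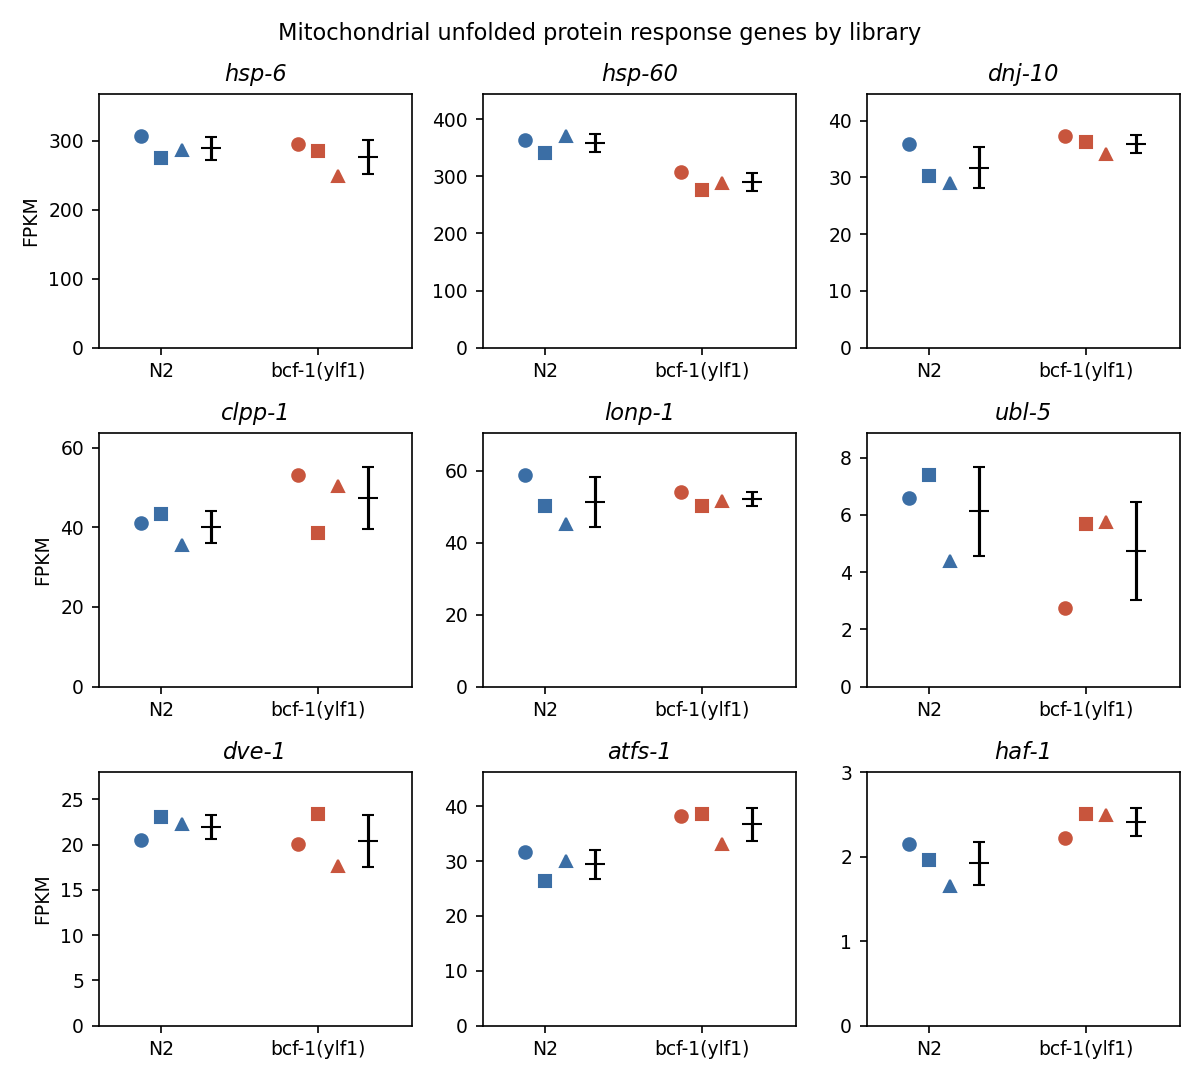
Each panel plots the FPKM of 1 gene in the 3 N2 libraries (blue) and the 3 bcf-1(ylf1) libraries (red), with circle, square and triangle for replicates 1, 2 and 3 and the mean with its SD in black; every y axis starts at 0. The groups are apart for hsp-60, atfs-1 and haf-1 and overlap for the other 6 genes.

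The matrix chaperones were the most abundant of the 9 genes. hsp-6 (C37H5.8; chromosome V, 4824124 to 4826760, WBcel235), which encodes the mitochondrial Hsp70, stood at 307, 274 and 286 FPKM in N2 and at 296, 284 and 249 FPKM in the mutant. The groups overlapped, with only mutant replicate 3 below all N2 libraries. The means were 289 ± 16.5 and 277 ± 24.1 FPKM (SD, n = 3 each), and the log2 change was -0.066 (95% interval -0.33 to 0.19, limma adjusted p = 0.656). After quantile normalisation, which gives every library the same distribution of values, the change was 0.23 (adjusted p = 0.147). It was -0.34 after median-ratio scaling, which sets the libraries to a common median ratio over genes (adjusted p = 0.0661) and -0.38 after centring by exon length (adjusted p = 0.0463), which passed the threshold.

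hsp-60 (Y22D7AL.5; chromosome III, 1619742 to 1625803), the gene of the mitochondrial chaperonin, stood at 364, 341 and 371 FPKM in N2 and at 307, 276 and 289 FPKM in the mutant. All 3 mutant libraries lay below all 3 N2 libraries. The mean fell from 359 ± 15.6 to 291 ± 15.8 FPKM, a 1.23-fold lower level, with a log2 change of -0.30 (95% interval -0.54 to -0.064, limma adjusted p = 0.0400). The call rested on all 6 libraries: leaving out any single one gave an adjusted p between 0.0502 and 0.130. After quantile normalisation the change was 0.031 (adjusted p = 0.825), and after median-ratio scaling -0.58 (adjusted p = 0.00571), so both its size and its direction depend on the scaling.

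dnj-10 (F22B7.5; chromosome III, 8631165 to 8633565) encodes a DnaJ protein, the kind of co-chaperone that delivers clients to Hsp70, and hsp-6 stood 9.16-fold above it in N2. It stood at 35.9, 30.2 and 29.1 FPKM in N2 and at 37.3, 36.2 and 34.1 FPKM in the mutant. N2 replicate 1 lay among the mutant libraries and the other N2 libraries below them. The log2 change was 0.18 (95% interval -0.12 to 0.47, limma adjusted p = 0.282).

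The matrix proteases did not pass the threshold. lonp-1 (C34B2.6; chromosome I, 10676922 to 10682374), the gene of the Lon protease, which also degrades ATFS-1 inside mitochondria, stood at 58.9, 50.3 and 45.1 FPKM in N2 and at 54.2, 50.3 and 51.7 FPKM in the mutant. All 3 mutant libraries lay within the N2 range. The log2 change was 0.025 (95% interval -0.27 to 0.32, limma adjusted p = 0.886). clpp-1 (ZK970.2; chromosome II, 10300710 to 10302842), the gene of the ClpP protease, whose peptides are thought to signal out of the matrix, stood at 41.2, 43.2 and 35.5 FPKM in N2 and at 53.1, 38.5 and 50.4 FPKM in the mutant. Mutant replicates 1 and 3 lay above all N2 libraries and mutant replicate 2 among them. The log2 change was 0.23 (95% interval -0.12 to 0.58, limma adjusted p = 0.243). mdt-22, chosen after its value was seen, lies inside clpp-1 on the other strand, with 673 bases in common and 11.98 to 18.7 FPKM. Whether counting used strand is not stated, so some of the clpp-1 value may be reads of mdt-22.

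Of the regulators, atfs-1 was the one nearest to a call. atfs-1 (ZC376.7; chromosome V, 14194446 to 14197699) encodes the bZIP transcription factor that carries the response to the nucleus. It stood at 31.7, 26.5 and 30.05 FPKM in N2 and at 38.2, 38.6 and 33.2 FPKM in the mutant. Every mutant library lay above every N2 library. The means were 29.4 ± 2.68 and 36.7 ± 3.02 FPKM, a ratio of 1.25, and the log2 change was 0.31 (95% interval 0.014 to 0.61), or 0.075 relative to all tested genes. Its unadjusted limma p was 0.0418 and its adjusted p 0.0767, and without N2 replicate 1 the adjusted p was 0.0381. With any other library left out the adjusted p of atfs-1 was 0.103 to 0.241. Its change was 0.046 after median-ratio scaling and 0.024 after centring by exon length. ATFS-1 is controlled mostly by where the protein goes, which RNA levels do not measure.

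The other regulators were not called. haf-1 (C30H6.6; chromosome IV, 17376427 to 17379322) encodes an ABC transporter of the inner membrane that exports peptides from the matrix. It was the least abundant of the 9, at 2.16, 1.96 and 1.65 FPKM in N2 and at 2.23, 2.51 and 2.4998 FPKM in the mutant. The groups did not overlap, with a gap between 2.16 and 2.23 FPKM, and the log2 change was 0.22 (95% interval -0.073 to 0.52, limma adjusted p = 0.184), a scale that understates the ratio of means of 1.25 at this low level. The last 76 bases of haf-1 overlap C30H6.9 on the other strand, chosen after its value was seen, which stood at 19.2 to 24.3 FPKM, so some of the haf-1 value may be reads of its neighbour.

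dve-1 (ZK1193.5; chromosome X, 427035 to 433812) encodes a homeodomain protein that gathers on chaperone promoters during mitochondrial stress. It stood at 20.5, 23.1 and 22.2 FPKM in N2 and at 20.1, 23.4 and 17.6 FPKM in the mutant. Mutant replicates 1 and 3 lay below all N2 libraries and mutant replicate 2 above them. The log2 change was -0.11 (95% interval -0.43 to 0.22, limma adjusted p = 0.553). ubl-5 (F46F11.4; chromosome I, 5607826 to 5608841) encodes a small ubiquitin-like protein that works with DVE-1. It stood at 6.58, 7.40 and 4.39 FPKM in N2 and at 2.75, 5.70 and 5.75 FPKM in the mutant, and only mutant replicate 1 lay below all N2 libraries. Its log2 change of -0.34 was numerically the lowest of the 9 but had the widest interval (95% interval -0.94 to 0.26, limma adjusted p = 0.313), and without mutant replicate 1 it was -0.059. Its annotated exons span 327 bases, the shortest of the 9 genes, and its coefficients of variation were 25.4% in N2 and 36.3% in the mutant, against 3.79% to 16.4% for the other 8 genes over both genotypes.

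**Figure D2:**
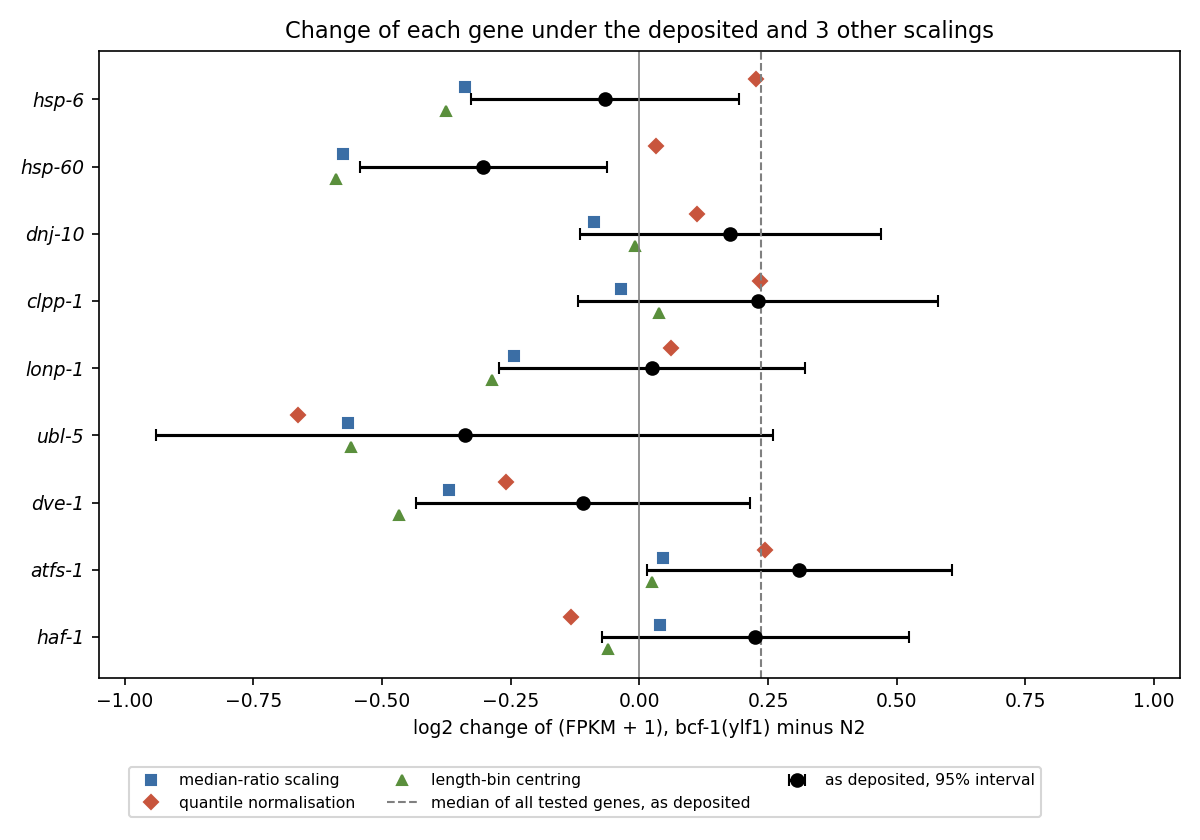
The mutant minus N2 difference of each gene in log2(FPKM + 1), with its 95% interval from limma (black), beside the change after median-ratio scaling (blue squares), quantile normalisation (red diamonds) and centring within exon length bins (green triangles); the dashed line marks the median of all tested genes, 0.24. The interval of hsp-60 lies below 0 and that of atfs-1 just above it, while the other scalings move several genes across 0.

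The order of the levels was nearly the same in both genotypes. In N2 it ran hsp-60, hsp-6, lonp-1, clpp-1, dnj-10, atfs-1, dve-1, ubl-5 and haf-1, from 359 to 1.92 FPKM. Neighbours whose libraries overlapped in N2 were clpp-1 with dnj-10 and dnj-10 with atfs-1, and all other neighbours were apart. In the mutant the ranges of hsp-60 and hsp-6 overlapped (276 to 307 and 249 to 296 FPKM), as did those of lonp-1 with clpp-1, clpp-1 with atfs-1 and atfs-1 with dnj-10. atfs-1 and dnj-10 had changed places there, with means of 36.7 and 35.9 FPKM that their ranges do not separate. hsp-60 and hsp-6 lay above 97.5% and 97.2% of tested genes in mean level, haf-1 above 12.5% and ubl-5 above 29.6%.

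The change of a gene went with its level across the whole table, which bears on how these 9 are read. In the lowest decile of levels the log2 change had a median of 0.39, and in the highest decile one of -0.035. hsp-6 and hsp-60 belong to the highest decile: the 381 genes at or above the mean level of hsp-6 had a median change of -0.057, and of 0.11 after quantile normalisation. Of the 9 genes, 8 lay below the median change of all tested genes, all but atfs-1. Changes went with exon length as well, with a median of 0.13 in the decile of shortest genes and 0.39 in that of the longest. Replicates differed by length too: in the decile with a median of 703 bases, close to the 791 bases of clpp-1, the median deviation from the mean of the genotype was -0.080 log2 units in mutant replicate 2 and 0.074 in mutant replicate 3. After median-ratio scaling 0 of the 9 genes were higher and 1 lower by limma, against 22% and 23.7% of tested genes. After quantile normalisation these counts were 0 and 0, against 24% and 20.6%. After each library was centred within bins of exon length, they were 0 and 3 (hsp-60, hsp-6 and dve-1), against 21.4% and 22.3%. The part of these patterns in the values of single genes was not tested beyond the scalings given here.

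**Figure D3:**
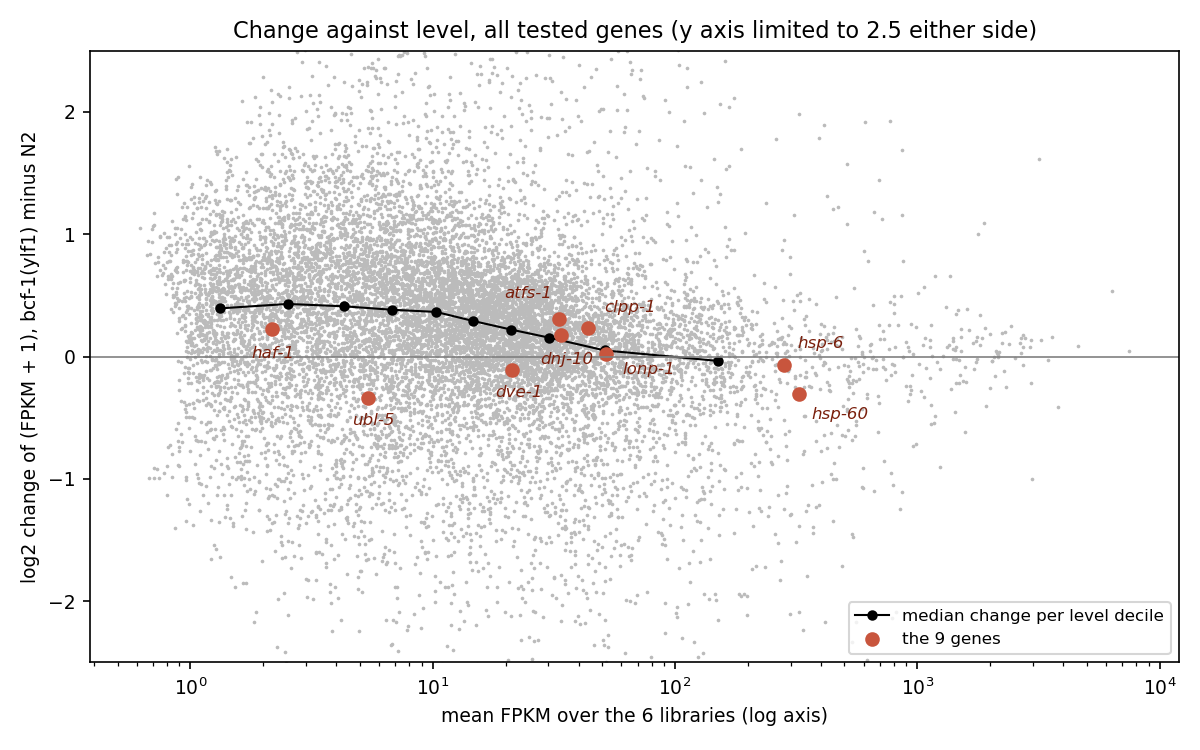
Difference between mutant and N2 means of log2(FPKM + 1) against mean FPKM over the 6 libraries on a log axis, for all tested genes (grey), the 9 genes (red) and the median of each level decile (black line); genes that changed by more than 2.5 are outside the axis. hsp-6 and hsp-60 sit at the abundant end, where the median change is near 0, and 8 of the 9 genes lie below 0.24.

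Ratios between genes of the same library do not change when a library is multiplied by a single factor, but they do change under quantile normalisation or centring by exon length. They were computed for 15 pairs chosen after the values were seen, and with 3 libraries against 3 the smallest p an exact permutation test can give is 0.1. The ratio of atfs-1 to hsp-6 was 0.103, 0.0965 and 0.105 in the N2 libraries and 0.129, 0.136 and 0.133 in the mutant libraries, and that of atfs-1 to hsp-60 was 0.0871, 0.0776 and 0.0810 in N2 and 0.125, 0.140 and 0.115 in the mutant. All mutant libraries lay above all N2 libraries in both ratios, by 0.39 and 0.62 log2 units. After quantile normalisation the changes of atfs-1, hsp-6 and hsp-60 were 0.24, 0.23 and 0.031, so that atfs-1 and hsp-6 hardly differed there. Relative to hsp-60, hsp-6 was at 0.843, 0.804 and 0.771 in N2 and at 0.963, 1.03 and 0.864 in the mutant, again without overlap. Relative to its co-chaperone gene dnj-10, hsp-6 went the other way, from 8.56, 9.09 and 9.83 in N2 to 7.93, 7.87 and 7.31 in the mutant. Each of these 4 ratios had an exact two-sided p = 0.1, the smallest possible, and p = 0.167 adjusted over the 15 pairs. With 3 libraries against 3 no ratio could pass the threshold, so the missing calls say nothing about these ratios.

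The chaperones were also set against 12 enzymes of the citric acid cycle and linked steps, by their geometric mean. One of them, idh-1, may be a cytosolic enzyme, so the mean may not be purely one of mitochondrial enzymes. Another, pdha-1, chosen after its values were seen, stood at 190.5 FPKM in N2 replicate 1. In the other libraries it was at 67.5 to 93.2 FPKM. It thus raises the mean, and lowers every ratio to it, in N2 replicate 1. The ratios were not recomputed without pdha-1. hsp-6 was at 1.06 ± 0.0285 of that mean in N2 and at 1.04 ± 0.0736 in the mutant, with overlapping groups (exact permutation test, p = 0.7). hsp-60 was at 1.31 ± 0.0238 and 1.09 ± 0.0927, with all mutant libraries lower (exact permutation p = 0.1, the smallest possible). dnj-10 went the other way, at 0.116 ± 0.0111 and 0.135 ± 0.00595, with all mutant libraries higher (exact permutation p = 0.1). The gap was small, between 0.127 in N2 replicate 1 and 0.129 in mutant replicate 2. In FPKM the genotypes overlapped for dnj-10, so this separation may rest on pdha-1, which was not tested. haf-1 was also higher in all mutant libraries, at 0.00704 ± 0.000937 and 0.00906 ± 0.00068 (exact permutation p = 0.1). The ratio of lonp-1 to the same mean was 0.188 ± 0.0233 and 0.196 ± 0.0136, overlapping (exact permutation p = 0.7). That of atfs-1 was 0.107 ± 0.00540 and 0.138 ± 0.00745, apart (exact permutation p = 0.1). Those of clpp-1, ubl-5 and dve-1 overlapped (exact permutation p = 0.3, 0.5 and 0.5). For each ratio that was apart, the exact permutation p was 0.167 after adjustment over the 15 pairs.

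**Figure D4:**
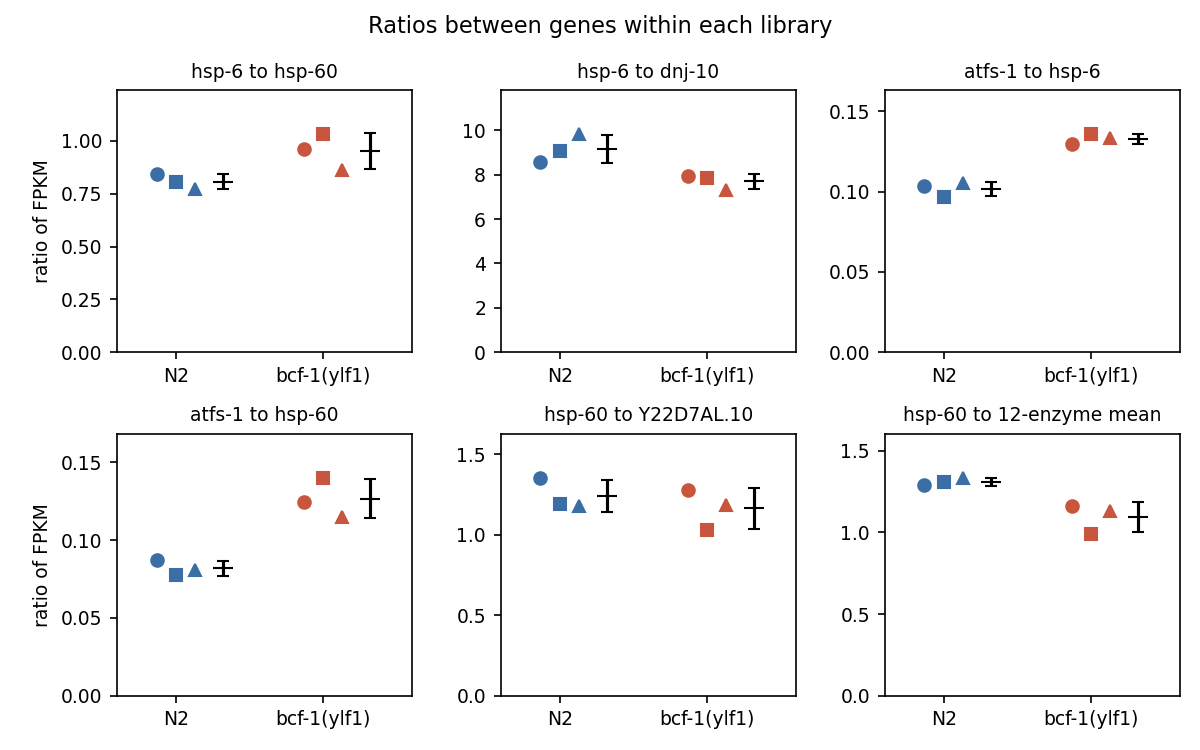
Ratios of FPKM between genes within each library for N2 (blue) and bcf-1(ylf1) (red), with circle, square and triangle for replicates 1, 2 and 3 and the mean with its SD in black; every y axis starts at 0. The mutant libraries lie above the N2 libraries in both atfs-1 ratios and below them in the ratio of hsp-60 to the mean of 12 enzymes, while the ratio of hsp-60 to Y22D7AL.10 overlaps.

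hsp-60 has a divergent neighbour. Y22D7AL.10 (chromosome III, 1617151 to 1618929), chosen after its value was seen, lies on the opposite strand with its annotated start 813 bases from that of hsp-60. It stood at 269, 286 and 315 FPKM in N2 and at 239.9, 269 and 243 FPKM in the mutant, just without overlap, with a log2 change of -0.21 (limma adjusted p = 0.156). The ratio of hsp-60 to Y22D7AL.10 was 1.24 ± 0.0986 in N2 and 1.16 ± 0.128 in the mutant (exact permutation test, p = 0.5). Around other members the neighbours could move on their own: C30H6.5, chosen after its value was seen, ends 723 bases before haf-1 on the same strand and fell from 31.3, 46.6 and 40.3 FPKM to 13.2, 15.3 and 11.9 FPKM (limma adjusted p = 0.00018).

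The genes with the most similar profiles over the 6 libraries, by Euclidean distance between log2 values centred on their own mean among 7530 candidate genes of at least 10 FPKM, were Y94H6A.5, hsp-110 and nol-14 for hsp-6 (distances 0.087, 0.11 and 0.11). hsp-110, a cytosolic chaperone gene of the Hsp70 superfamily, had a log2 change of -0.082. For hsp-60 they were srdh-1, mrps-7 and mrpl-44 (distances 0.044, 0.10 and 0.10). mrps-7 and mrpl-44 encode proteins of the mitochondrial ribosome. srdh-1, mrps-7 and mrpl-44 had log2 changes of -0.31, -0.33 and -0.31. All these genes were picked for their likeness to hsp-6 or hsp-60, so their changes had to resemble those of hsp-6 or hsp-60.

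Other genes of the pathway were read from lists compiled from general knowledge of the worm. Among 12 further regulators of the UPRmt, 4 rose and 0 fell by limma (0 fell at an unadjusted p under 0.05 either), and the median log2 change was 0.31 against 0.24 for all tested genes. The share called higher, 33.3%, was close to the 34.6% of all tested genes. jmjd-3.1, a histone demethylase gene that promotes the response, stood at 5.66, 6.92 and 6.49 FPKM in N2 and at 20.3, 21.3 and 21.9 FPKM in the mutant, a 3.33-fold rise (limma adjusted p = 3.57e-05). The groups were far apart, and the call was kept under every alternative tried. cbp-1, an acetyltransferase gene, rose from 23.1 to 26.7 FPKM in N2 to 36.3 to 40.2 FPKM in the mutant, and hda-1, a histone deacetylase gene, from 32.2 to 40.6 to 48.4 to 52.3 FPKM (limma adjusted p = 0.00281 and 0.0131). jmjd-1.2, the demethylase gene that works beside jmjd-3.1, rose by 0.42 log2 units (adjusted p = 0.0444). Centring by exon length brought cbp-1 to 0.27 and hda-1 to 0.29 (adjusted p = 0.0826 and 0.0813), neither called. hda-1 was not called after median-ratio scaling (0.21, adjusted p = 0.173) or without mutant replicate 1 (adjusted p = 0.0661) either. The adjusted p of jmjd-1.2 was 0.0945 to 0.125 without any 1 library other than N2 replicate 1. Its change was 0.16 after median-ratio scaling, 0.30 after quantile normalisation and 0.11 after centring by exon length. It was not called in any of these (adjusted p = 0.363, 0.0864 and 0.522). lin-65 and met-2, chromatin factors of the response chosen after their values were seen, had log2 changes of 0.31 and 0.22 and were not called (adjusted p = 0.154 and 0.367).

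Protein import into mitochondria, whose slowing sets off the response, had 15 of 16 listed genes in the table and tested. 2 fell and 0 rose by limma (3 and 0 at an unadjusted p under 0.05), and the median log2 change was -0.18, or -0.42 relative to all tested genes. The 13.3% called, all lower, compare with 15% of all tested genes called lower. mppa-1, a subunit of the peptidase that trims imported proteins, stood at 53.0, 53.1 and 48.3 FPKM in N2 and at 42.9, 35.6 and 37.7 FPKM in the mutant (limma adjusted p = 0.0244). dnj-21, of the import motor, stood at 18.8, 19.3 and 21.5 FPKM in N2 and at 14.1, 15.3 and 14.5 FPKM in the mutant (adjusted p = 0.0256). Neither had overlapping groups. The call of mppa-1 was lost without N2 replicate 2 or mutant replicate 2 or 3 (adjusted p = 0.0609, 0.0787 and 0.0956), and that of dnj-21 without N2 replicate 3 or mutant replicate 1 or 3 (0.0993, 0.119 and 0.0956). After median-ratio scaling 8 of the 15 fell, against 23.7% of tested genes.

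Of 14 genes listed with mitochondrial co-chaperones and quality control, 3 rose and 1 fell, with a median log2 change of 0.075. That is 28.6% called, against 49.6% of all tested genes. dct-1, a receptor gene of mitophagy, stood at 7.51, 7.37 and 8.67 FPKM in N2 and at 14.1, 21.8 and 14.6 FPKM in the mutant (limma adjusted p = 0.00225). K07A3.3 and D2030.2 rose as well, by 0.90 and 0.45 log2 units (adjusted p = 0.0112 and 0.0306), the latter call being lost on leaving out any 1 library other than N2 replicate 1 (0.0531 to 0.118). D2030.2 was not called after median-ratio scaling or centring by exon length either (adjusted p = 0.242 and 0.298). C34C12.8 fell from 43.2, 43.6 and 30.1 FPKM to 23.01, 12.5 and 19.6 FPKM (adjusted p = 0.00501). The prohibitin genes phb-1 and phb-2, the i-AAA protease gene ymel-1 and the mitophagy kinase gene pink-1, all chosen after their values were seen, had log2 changes of 0.11, -0.019, 0.23 and -0.24 and were not called.

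Knockdown of many respiratory chain, prohibitin and mitochondrial ribosome genes is known to switch on hsp-6 or hsp-60 reporters in the worm. Of 10 such genes, 0 rose and 0 fell by limma, against 34.6% and 15% of all tested genes. At an unadjusted p under 0.05 the counts were also 0 and 0, against 56.5% in either direction. Changes lay between -0.14 and 0.11, with a median of -0.013. spg-7, phb-1 and phb-2 are also counted among the 14 genes of co-chaperones and quality control. cox-5B, isp-1, nuo-6 and mrps-5, chosen after their values were seen, had log2 changes of -0.12, -0.027, -0.14 and 0.097. The 12 enzymes of the citric acid cycle and linked steps likewise had 0 calls by limma in either direction, against 49.6% of all tested genes. At an unadjusted p under 0.05 there was 1 lower, gdh-1, and the median was -0.017.

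Of 7 genes outside the chaperones reported to depend on ATFS-1, 1 rose (abf-2) and 2 fell, with a median log2 change of 0.24. With abf-2 counted, 42.9% were called, against 49.6% of all tested genes. lys-2, a lysozyme gene of the intestine, fell from 235.3, 313 and 206 FPKM in N2 to 108, 95.7 and 109 FPKM in the mutant (limma adjusted p = 0.000316), and the C-type lectin gene clec-4 from 15.4, 11.2 and 11.7 FPKM to 7.95, 7.65 and 6.13 FPKM (adjusted p = 0.00696). The antibacterial factor gene abf-2 went from 0.376, 0.442 and 0.400 FPKM to 1.09, 1.74 and 1.199 FPKM (adjusted p = 0.00195). abf-2 passed the filter only through the mutant libraries, where it is high, so it had to differ between the genotypes and its count is no support for a change of the list. With any 1 mutant library left out it was not tested, and after quantile normalisation it was not called (0.37, adjusted p = 0.0678). The genotypes were apart for 4 of the 7, lys-2, clec-4, skn-1 and abf-2, against 58.4% of tested genes. For abf-2 the filter fixed this in advance. skn-1 and drp-1, chosen after their values were seen, had log2 changes of 0.24 and 0.33 (adjusted p = 0.0993 and 0.0808).

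Chaperones of other compartments were read for comparison. Of 7 tested genes of the cytosol and endoplasmic reticulum, 3 rose and 1 fell, with a median of 0.16. The share called, 57.1%, was near the 49.6% of all tested genes. hsp-4, the endoplasmic reticulum Hsp70 gene that marks the unfolded protein response of that compartment, rose from 156, 162 and 174 FPKM to 275, 246 and 262 FPKM (limma adjusted p = 0.00104). hsp-1 and pdi-2 rose 1.48-fold and 1.56-fold (adjusted p = 0.00706 and 0.00631), and the heat-inducible gene hsp-70 fell from 28.0, 37.3 and 37.4 FPKM to 13.8, 21.3 and 12.3 FPKM (adjusted p = 0.00283). The difference between these genes and the matrix chaperones was not tested. After median-ratio scaling hsp-1 and pdi-2 were not called (adjusted p = 0.212 and 0.176), and after centring within exon length bins 0 of the 7 were called higher (hsp-4 adjusted p = 0.0581).

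**Figure D5:**
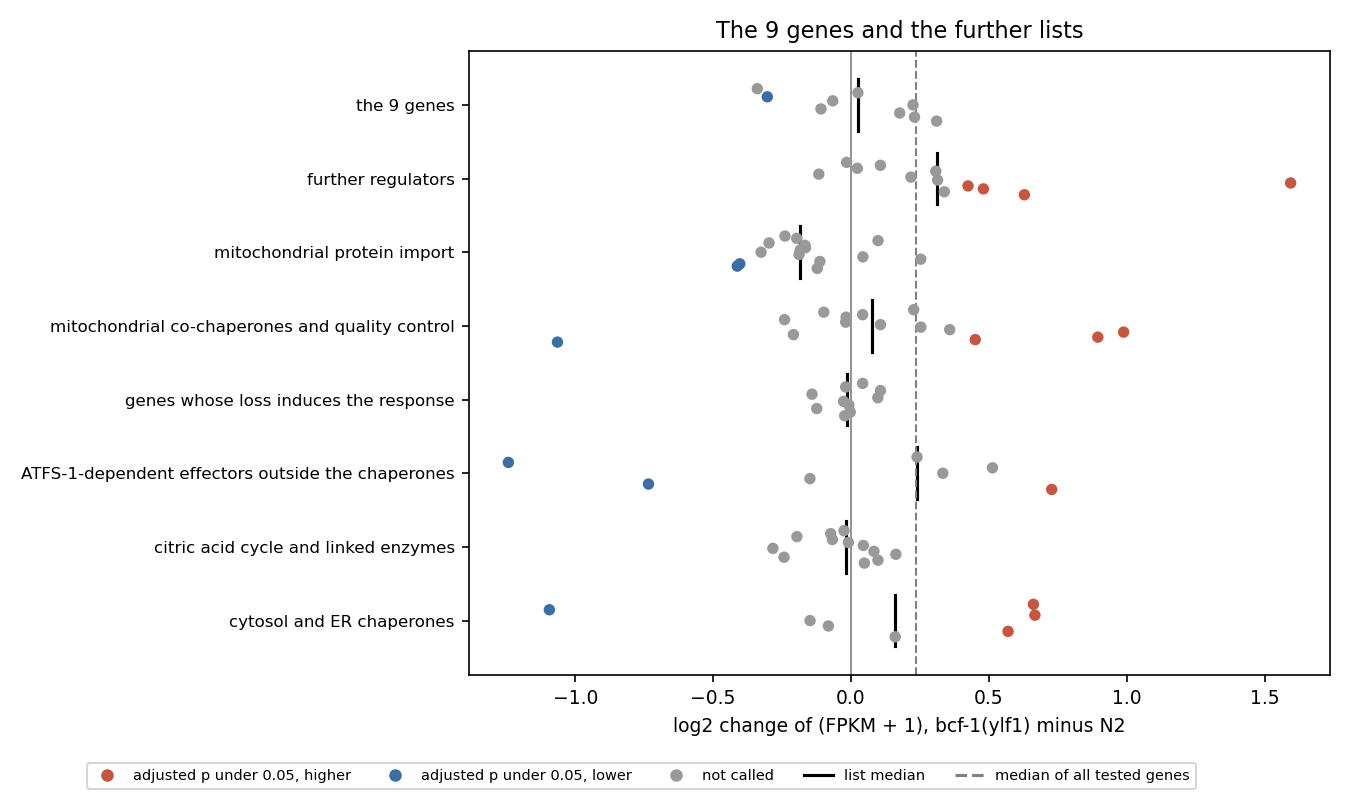
Mutant minus N2 difference in log2(FPKM + 1) of every tested gene of the 9 and of the further lists, coloured by limma call (red higher, blue lower, grey not called), with the list median as a black line and the median of all tested genes, 0.24, dashed. Changes of the 9 genes, the import genes, the genes whose loss induces the response and the citric acid cycle enzymes lie within 0.5 of 0. Single regulators, quality control genes, ATFS-1-dependent genes and chaperones of the cytosol and endoplasmic reticulum lie beyond 0.5.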

How the data were processed

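The authors deposited a table of all 6 libraries whose values were taken to be FPKM. No header or label names that unit, which was inferred from values that are not whole and sum to between 659249 and 687573 per library. TPM with some rows left out would look alike. The submitters' processing notes name fastp and WBcel235. The aligner, the quantifier and whether counting used strand are not given in these sources. RefSeq locus tags of WBcel235 matched 19959 of 20894 rows and gave symbols and positions. Exon lengths came from Ensembl release 115.

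Values were log2(FPKM + 1), filtered at 1 FPKM in 3 libraries, and fitted with limma 3.58.1 in R 4.3.3 with genotype as the only term and a mean-variance trend. The fit was tested on simulated data. Ratios within libraries were compared with exact permutation tests (SciPy 1.17.1). The 9 genes, the lists and the tests were chosen with earlier results of these data known. Named genes were the 9, up to 4 called genes of smallest p per list, the 3 nearest profiles of hsp-6 and hsp-60, and bcf-1 and vit-2. Other genes are marked as chosen after their values were seen. The symbols tin-9.2, daf-21 and opt-2 matched no row. Alternatives were pseudocounts of 0.1 and 0.5, no filter, median-ratio scaling, quantile normalisation, no trend, the replicate number as a block, leaving out each library, and, added after seeing the data, centring each library within 10 bins of exon length.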

Additional observations from a re-analysis of the deposited data

How the results depend on the processing

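Over 14 alternatives, 103 of 126 changes of the 9 genes kept their direction and their side of the threshold, 12 turned direction, 8 lost a call, all of hsp-60, and 3 gained one. The turned values were, after quantile normalisation, 0.23 for hsp-6, 0.031 for hsp-60 and -0.13 for haf-1; after median-ratio scaling, -0.088 for dnj-10, -0.036 for clpp-1 and -0.24 for lonp-1; after centring by exon length, -0.0088 for dnj-10, -0.29 for lonp-1 and -0.062 for haf-1. Over the left-out libraries the change ran from -0.12 to 0.0062 for hsp-6, above 0 without mutant replicate 3, and from -0.063 to 0.12 for lonp-1, below 0 without N2 replicate 3 or mutant replicate 1. None of the turned values passed the threshold. The calls gained were hsp-6 (-0.38, adjusted p = 0.0463) and dve-1 (-0.47, 0.0412) after centring by exon length, and atfs-1 without N2 replicate 1. hsp-60 was also lost without a mean-variance trend (adjusted p = 0.0677). The cause of these changes was not tested.

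The count of the 9 genes lower was 0 after quantile normalisation, without a trend and on leaving out any 1 library, and 3 after centring by exon length, against 1; the count higher was 0 to 1 over the left-out libraries. Over all tested genes 4703 higher and 2035 lower became 2975 and 3210 after median-ratio scaling, 3255 and 2803 with quantile normalisation, and 2909 and 3033 after centring by exon length, with 2877 to 5720 higher and 1640 to 1870 lower over the left-out libraries. Counts after median-ratio scaling and after centring by exon length were 2 and 1 higher and 1 and 1 lower for further regulators (4 and 0 in the reported fit), 8 and 8 lower for import (2), 3 and 3 lower for co-chaperones and quality control (1), 3 and 2 lower for citric acid cycle enzymes (0), and 1 and 0 higher and 2 and 2 lower for chaperones of other compartments (3 and 1). After median-ratio scaling 1 of the genes whose loss induces the response was lower, and 0 of the ATFS-1-dependent genes were higher. After quantile normalisation 2 genes whose loss induces the response and 4 citric acid cycle enzymes were higher, and 2 quality control genes lower. Over the left-out libraries, counts higher ran from 2 to 7 for further regulators, 2 to 5 for quality control, 0 to 1 for import and 0 to 3 for ATFS-1-dependent genes, and counts lower from 0 to 3 for import and 0 to 1 for citric acid cycle enzymes.

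The replicate numbers did not pair the libraries: same-numbered libraries correlated at 0.0097, -0.074 and -0.28 in their deviations from the group means, over genes, and N2 replicate 3 correlated best with mutant replicate 2 (0.34). With the replicate number as a block, 0 of the 9 genes were called (hsp-60 adjusted p = 0.131), as were 0 import genes, and 2 ATFS-1-dependent genes were higher. The depth is unknown, so no counting error is given, and the 3 libraries per genotype limit the precision to the intervals shown.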

Other observations

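pdha-1, a gene of the pyruvate dehydrogenase complex and 1 of the 12 enzymes used as a reference, stood at 190.5 FPKM in N2 replicate 1 and at 67.5 to 93.2 FPKM in the other 5 libraries. It was chosen after its values were seen.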
